A study of Mus musculus with 2 samples.

Results

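Stmn1 and 8 genes for alpha- and beta-tubulin (Tuba1a, Tuba1b, Tuba1c, Tubb2a, Tubb2b, Tubb4b, Tubb5 and Tubb6) were followed across the cell populations of mouse back skin, 9 of the 31053 genes in the deposited tables. Stmn1 was chosen by its ratio between the miR-205-induced and the control library in hair follicle stem cells, and the tubulins were added as the proteins it binds. The values of Stmn1 in that contrast are therefore given as a description. Matching by gene symbol found all 9 genes, and each was detected in both libraries.

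The study asked how extra miR-205 changes the state of adult hair follicle stem cells. Back skin was taken at postnatal day 53 from 1 control mouse and 1 mouse that carried a tetracycline-responsive miR-205 transgene (TRE2-miR-205) under a Krt14-rtTA driver, so that induction was aimed at keratin 14-expressing epithelium. Both mice were gender matched, labelled C57BL/6 and carried a Krt14-H2BGFP allele, and the induced mouse had been on doxycycline chow for the last 4 days, starting at postnatal day 49. The transgene was founded in FVB mice by the study's methods, so the genetic background may be mixed. The treatment label calls the control untreated whereas the protocol has both mice on doxycycline, which leaves the chow of the control uncertain. Live cells were sorted on surface proteins and H2BGFP and recombined at 3 parts epidermal, 5 parts follicle and 2 parts dermal cells, so the shares of cell types were set by the sort. Each group is 1 library from 1 mouse, so no comparison here has a replicate check: intervals are exact 95% intervals that cover counting error alone, and no p-value is given.

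Microtubules are polymers of alpha- and beta-tubulin dimers that grow and shrink from their ends. Stathmin 1, the product of Stmn1, binds free dimers and promotes shrinkage, and its phosphorylation at mitosis releases that brake so that a spindle can form. Stmn1 is well known as a gene of dividing cells, and in the resting follicle the stem cells of the bulge are mostly quiescent while the hair germ below them divides first when a new hair cycle starts.

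The control library held 55465594 unique molecular identifiers (UMIs, each standing for 1 captured RNA molecule) in 4545 barcodes and the induced library 49733560 in 4264. After filtering, 3936 and 3628 cells were kept, with medians of 12198.5 and 11752.5 UMIs per cell. The libraries shared 11 barcodes, 5 of them among the kept cells. Cells fell into 25 clusters, 17 of which could be named from marker genes, and 22 had at least 20 cells without cycling UMIs in each library. A cell is called cycling when it held a UMI of Top2a or Cdk1, which encode a topoisomerase and a kinase of dividing cells. The HF-SC-like class, clusters 3 and 19, had all 6 of its markers in both libraries, at 139 to 1828 UMIs per 1000000 UMIs of the population (CPM) in the control and 108 to 1656 CPM in the induced library. The inner bulge marker Krt6a was also high there, at 3340 and 3062 CPM. Markers of T cells summed to 0.288 and 0.574 CPM in these cells, and those of dermal fibroblasts to 39.8 and 31.3 CPM.

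The induced microRNA is shown first because its seed, bases 2 to 8 in capitals, is the stretch that pairs with target RNAs. The mature sequence is from RefSeq on GRCm38.p6 (chr1:193507503-193507524, minus strand).
mmu-miR-205-5p: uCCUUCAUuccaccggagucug
The 7-base complement of that seed had no match in the longest 3′ UTR annotated for each of the 9 genes (0 of 9), against 2064 of 19915 genes (10.4%) in the same transcript set. The 3′ UTRs of the 9 genes ran from 96 bases (Tuba1c) to 1056 bases (Tubb5), and the share over all genes was not matched for length. This says only that these letters are absent from those windows.

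For the promoters, a RefSeq sequence was read for 6 of the 9 genes, and none for Stmn1, Tubb2b and Tubb6. For Tubb6 this does not show that RefSeq lacks one, and the motif counts below leave these genes out. The 250 bases upstream of the start are printed for Tubb5 and Tuba1b, the tubulins that were far higher in cycling keratinocytes, and for Tubb4b and Tuba1c, the most abundant tubulins, which were not. Capitals mark CCAAT and TTTGAA on either strand (ATTGG and TTCAAA on the other), short motifs often named in promoters of cell cycle genes.
Tubb5, chr17:35838302-35838551, minus strand: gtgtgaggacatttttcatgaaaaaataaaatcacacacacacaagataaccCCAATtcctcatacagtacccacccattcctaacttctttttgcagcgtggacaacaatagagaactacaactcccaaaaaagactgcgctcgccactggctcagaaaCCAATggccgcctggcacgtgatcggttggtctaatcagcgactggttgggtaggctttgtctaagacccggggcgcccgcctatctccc
Tuba1b, chr15:98934391-98934640, minus strand: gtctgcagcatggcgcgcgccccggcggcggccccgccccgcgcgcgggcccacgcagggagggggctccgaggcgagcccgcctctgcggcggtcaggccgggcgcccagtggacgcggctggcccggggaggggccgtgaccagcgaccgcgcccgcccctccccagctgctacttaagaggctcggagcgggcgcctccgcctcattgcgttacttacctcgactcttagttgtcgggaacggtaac
Tubb4b, chr2:25224703-25224952, minus strand: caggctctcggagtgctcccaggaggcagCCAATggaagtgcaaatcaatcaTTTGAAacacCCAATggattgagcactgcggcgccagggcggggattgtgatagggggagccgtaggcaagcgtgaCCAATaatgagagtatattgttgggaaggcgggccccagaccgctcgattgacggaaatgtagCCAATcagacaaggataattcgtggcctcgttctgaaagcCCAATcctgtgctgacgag
Tuba1c, chr15:99029641-99029890, plus strand: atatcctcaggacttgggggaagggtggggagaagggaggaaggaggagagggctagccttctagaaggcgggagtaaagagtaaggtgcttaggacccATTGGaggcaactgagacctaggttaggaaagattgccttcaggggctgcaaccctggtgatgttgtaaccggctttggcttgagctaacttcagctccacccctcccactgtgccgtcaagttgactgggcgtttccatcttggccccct
CCAAT was found in 4 of the 6 promoters (Tuba1a, Tuba1c, Tubb4b and Tubb5), against 11120 of 32851 promoters of the same length (33.8%). TTTGAA was found in Tubb4b alone among the 6, against 5252 of 32851 promoters. Tubb4b held 5 matches to CCAAT and Tubb5 held 2, whereas Tuba1b had neither motif and a GC content of 75.6%. The motifs thus did not divide the tubulins that were higher in cycling cells from those that were not. Stmn1 lies at chr4:134468320-134473843 on the same build. Tuba1a, Tuba1b and Tuba1c lie within a short stretch of chromosome 15, Tubb2a and Tubb2b are neighbours on chromosome 13, and Tubb5 and Tubb4b lie on chromosomes 17 and 2.

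Among cells without cycling UMIs, Stmn1 was scarce in the hair follicle stem cells of the control. Its level over the 22 clusters ran from 8.14 CPM in T cell-like cells to 125 CPM in cluster 16, an unnamed keratinocyte cluster led by Ifnk and Nav3. The sebaceous gland markers Scd1, Mgst1, Pparg, Cidea and Acsbg1 were also raised in cluster 16, but none was among its 10 leading genes. The HF-SC-like cluster 3 stood at 15.6 CPM, place 17 of 22, below the inner bulge-like (27.3 CPM), hair germ-like (40.2 CPM) and sebaceous gland-like (103 CPM) clusters. Every neighbouring pair in this order had overlapping intervals, which does not show that adjacent levels are equal. In the induced library the order ran from 21.1 CPM, again in T cell-like cells, to 353 CPM in cluster 16, and cluster 3 reached 57.1 CPM, place 12 of 22. There only cluster 16 and the sebaceous gland-like cluster had intervals clear of that of the next cluster down.

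**Figure D1:**
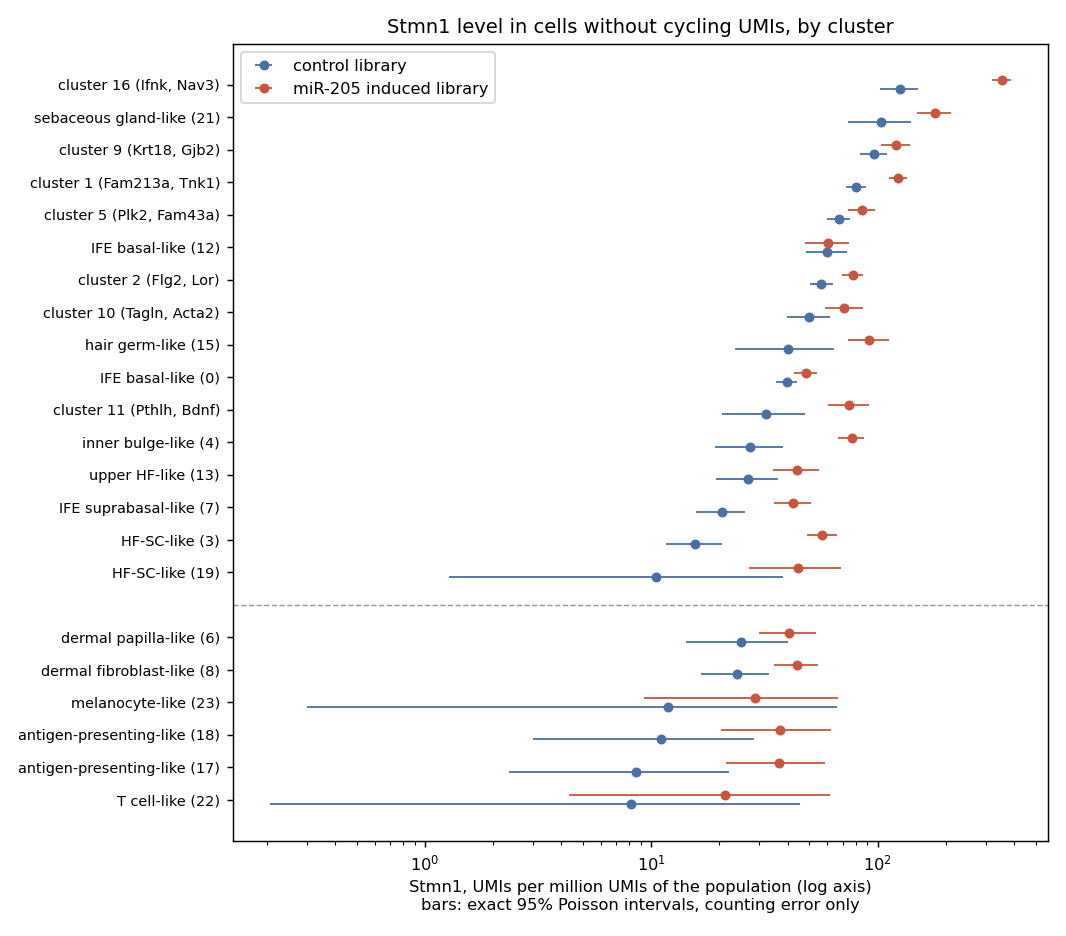
Stmn1 level in CPM (log axis) in each cluster of cells without cycling UMIs, with keratinocyte clusters above the dashed line and other cell types below; points are the control (blue) and induced (red) library and bars are exact 95% Poisson intervals. The induced point lies right of the control point in each cluster, from nearly equal in IFE basal-like cluster 12 (59.8 and 60.2 CPM) to 15.6 against 57.1 CPM in HF-SC-like cluster 3.

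In the 353 control HF-SC-like cells Stmn1 gave 53 UMIs, or 15.28 CPM (11.45 to 19.99). In the 351 induced cells it gave 193 UMIs, or 55.4 CPM (47.9 to 63.8). The 2 intervals do not overlap, and the log2 ratio of induced over control was 1.85 (1.41 to 2.33), a 3.60-fold difference. All genes with at least 20 UMIs had a median log2 ratio of 0.09 in the same cells, and Stmn1 held place 36 from the top among 9576 genes. Since Stmn1 was chosen by this contrast, the gap between the intervals, the ratio and the place only describe that choice. Cluster 3 alone gave 51 and 173 UMIs and a log2 ratio of 1.86, and cluster 19 gave 2 and 20 UMIs.

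The difference lay in how many cells held Stmn1 and in how many UMIs each held. In the control, 304 of 353 HF-SC-like cells (86.1%) had no Stmn1 UMI, 45 had 1 and 4 had 2, and none had more. In the induced library 228 of 351 (65.0%) had none, 80 had 1, 26 had 2 and 17 had 3 or more, up to 6 in a cell. The 5 cells with the most Stmn1 UMIs carried 17.0% of the control and 12.4% of the induced count, so the higher total was not held by a handful of cells. Median depth was close, at 9720 and 9912 UMIs per cell. With each cell thinned to 5000 UMIs, Stmn1 was seen in 7.27% of 330 control cells (4.72% to 10.6%; 23 shallower cells left out) and 20.5% of 337 induced cells (16.3% to 25.2%; 14 left out), against 13.9% and 35.0% without thinning.

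**Figure D2:**
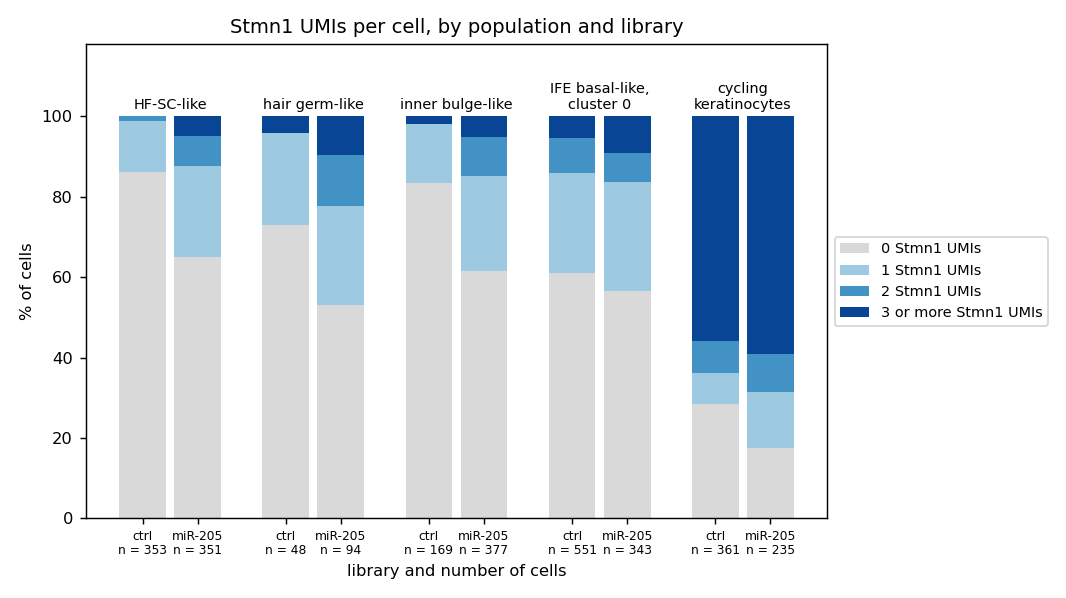
Share of cells with 0, 1, 2 or at least 3 Stmn1 UMIs in 5 populations of each library, with the number of cells under each bar. Cells without Stmn1 made up 86.1% of control and 65.0% of induced HF-SC-like cells, while most cycling keratinocytes held 3 or more UMIs.

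Few of these HF-SC-like cells held cycling UMIs by the definition used here. A Top2a or Cdk1 UMI was present in 3 of 356 control cells (0.843%) and 2 of 353 induced cells (0.567%), and these were set aside before the values above. A UMI of any of 10 cycling genes was present in 15.7% of control and 18.1% of induced cells, and without those cells the log2 ratio of Stmn1 was 1.73. Genes of S phase, the stage of DNA replication, summed to 265 CPM in cells with Stmn1 and 295 CPM in cells without in the control, and to 265 and 307 CPM in the induced library. For genes of G2 and M phase the values were 106 against 103 CPM and 91.0 against 86.9 CPM. Cells with Stmn1 were the deeper ones, with medians of 10786 against 9469 UMIs in the control and 10663 against 9208 in the induced library. In both libraries the S phase sum was thus lower in cells with Stmn1, and the G2 and M phase sum was higher there by less than 5 CPM. In control cells with Stmn1 these sums rest on 148 UMIs for S phase and 59 for G2 and M phase. No interval is given for these differences, and they were not tested. Over all keratinocytes without cycling UMIs, cells with Stmn1 had more of both, at 303 against 232 CPM for S phase in the control and 268 against 241 CPM in the induced library.

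Free RNA in the droplets can place UMIs in cells that do not make a transcript, and no cell type here is known to lack Stmn1. Dermal fibroblast-like cells, of similar depth (medians of 10408 and 10227.5 UMIs), served as the nearest reference. Stmn1 was seen in 11.9% of them in the control (6.98% to 18.7%) and 20.6% in the induced library (14.9% to 27.2%). Thinned to 5000 UMIs these shares were 1.79% and 10.6%. The unthinned control share of HF-SC-like cells (13.9%) was thus within the interval of the reference. At the thinned depth 7.27% was above 1.79%. That reference share comes from a few of at most 134 control cells and has no interval here, so the 2 shares are not shown to differ. The induced share (35.0%) was above the reference at both depths.

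Stmn1 was also higher in the induced library in cell types outside the epithelium, where the driver is not aimed. The level went from 24.8 to 40.5 CPM in dermal papilla-like cells, from 23.8 to 43.9 CPM in dermal fibroblast-like cells and from 8.59 to 36.6 CPM in antigen-presenting-like cluster 17. Counts were small, between 1 and 83 UMIs per library and cluster. The 3 of these 6 clusters with at least 20 UMIs had log2 ratios of 0.68 to 1.96, and the interval excluded 0 in 2 of them, those of fibroblast-like and antigen-presenting-like cells. Krt14, which encodes a keratin of basal keratinocytes and stands here for free epithelial RNA, was lower in the induced library in 5 of the 6 clusters, for example at 818 against 422 CPM in dermal papilla-like cells. Stmn1 per 1000 Krt14 UMIs was 30.3 and 96.0 in those dermal papilla-like cells, against 12.6 and 20.8 over the whole libraries. In the control it lay below the library value in antigen-presenting-like cluster 17 (11.2), cluster 18 (4.51) and melanocyte-like cells (10.6), and in the induced library it was 52.3, 35.6 and 20.9 there. The part of free RNA in these ratios was not tested, and with 1 mouse per group induction and any other difference between the mice cannot be told apart.

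In the hair germ-like cluster, which had 5 of 6 hair germ markers raised with Edar at 0 in both libraries, Stmn1 gave 17 UMIs in 48 control cells (40.2 CPM, 23.4 to 64.3). It gave 93 UMIs in 94 induced cells (91.7 CPM, 74.0 to 112). The log2 ratio was 1.16 (0.43 to 2.03). The summed markers of cycling cells also differed here, at 16.5 CPM in the control and 52.3 CPM in the induced library, although Top2a and Cdk1 were at 0 by construction. When cells with a UMI of any of 10 cycling genes were set aside, the log2 ratio of Stmn1 was 0.99. A coarser clustering (resolution 0.4) gave 0.72. Of the induced count, 36.6% came from 5 cells, with up to 12 UMIs in a cell. Cells with a UMI of those 10 genes made up 14.6% of the control and 38.5% of the induced cluster. Unnamed keratinocyte cluster 10 also had Lgr5, Lef1, Gli1 and Cd200 raised. Its mean log2 fold over the hair germ markers was 2.04, against 2.19 in the hair germ-like cluster. Stmn1 in cluster 10 had a lower log2 ratio, 0.51 (0.09 to 0.94; 85 and 111 UMIs).

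Over all 16 keratinocyte clusters compared, the induced library had more Stmn1 in each. Under 6 of 12 alternatives 1 cluster lay below 0, leaving for example 15 of 16 above 0 as a mean over cells and 9 of 10 at resolution 0.4. The log2 ratio was at least 0.5 in 11 clusters, its interval lay above 0 in 15, and the median was 0.74. The lowest value was 0.01, in IFE basal-like cluster 12, where the interval spanned 0. The highest values were 1.86 in HF-SC-like cluster 3 and 1.79 in HF-SC-like cluster 19 (2 and 20 UMIs). Next came 1.49 in cluster 16 (108 and 394 UMIs) and 1.47 in inner bulge-like cells (35 and 224 UMIs). Stmn1 was chosen by its ratio in hair follicle stem cells, so nothing is read from the place of the HF-SC-like clusters or their part in these counts. IFE suprabasal-like cells, the differentiating layer of the interfollicular epidermis, stood at 1.05, and basal-like cluster 0 at 0.28 (0.05 to 0.51). Summed over 3140 control and 2759 induced keratinocytes without cycling UMIs, Stmn1 had 2130 and 3032 UMIs (52.1 and 84.0 CPM) and a log2 ratio of 0.69. Since clusters enter that sum in different proportions in each library, the median over clusters is the safer summary.

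**Figure D3:**
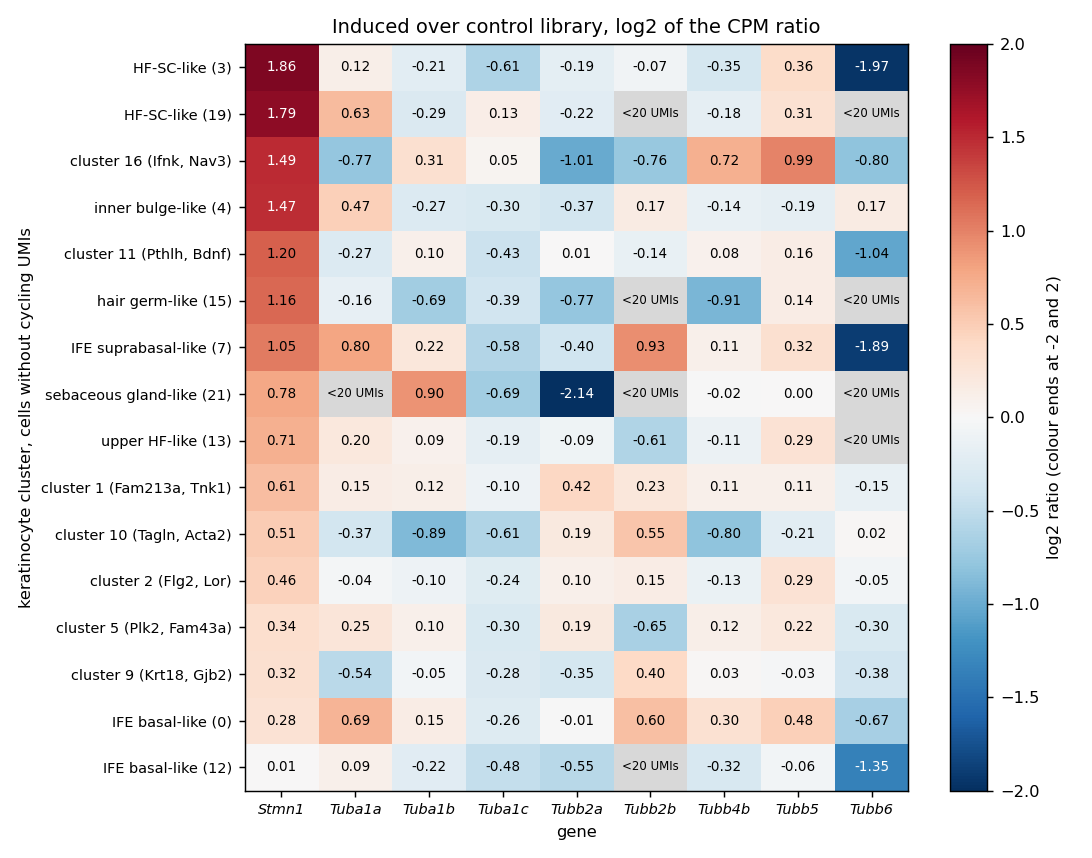
Log2 of the induced over control CPM ratio for each of the 9 genes (columns) in each of the 16 keratinocyte clusters (rows, ordered by the Stmn1 value), in cells without cycling UMIs; red is higher and blue lower in the induced library, and grey marks fewer than 20 UMIs. The Stmn1 column is above 0 throughout (0.01 to 1.86), Tuba1c is below 0 in 14 of 16 clusters, and the other tubulins change sign between clusters or have gaps.

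The tubulins did not follow Stmn1. In HF-SC-like cells 1 of the 9 genes, Stmn1, was higher by log2 0.5 or more, where 17.3% of all 9576 genes were, and 2 were lower by as much, Tuba1c and Tubb6, where 8.77% of genes were. In hair germ-like cells, Stmn1 was again the gene that was higher (all genes 18.7%), and Tuba1b, Tubb2a and Tubb4b were lower (all genes 16.7%), among 7 with at least 20 UMIs. These hair germ calls rest on small counts: under 5% mitochondrial UMIs Tuba1b stood at -0.31, and at resolution 0.4 Tubb2a stood at -0.15. Over all keratinocytes without cycling UMIs, Stmn1 was higher (all genes 13.4%) and Tubb6 lower (all genes 4.54%). The contrast of HF-SC-like cells was the one that chose Stmn1, so nothing is read from its place in these counts.

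Among the alpha-tubulins, Tuba1c was the most abundant in HF-SC-like cells and was lower after induction. It had 3189 UMIs in the control (920 CPM) and 1969 in the induced library (565 CPM), a log2 ratio of -0.70 (-0.78 to -0.62). Cluster 3 alone gave -0.61, while in cluster 19, which held 27 control and 57 induced cells, Tuba1c stood near 100 to 111 CPM in both libraries. Over the 16 keratinocyte clusters the interval lay below 0 in 14, with a median of -0.30. The lowest was -0.69 in sebaceous gland-like cells and the highest 0.13 in cluster 19.

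Tuba1b, an alpha-tubulin gene active in most cells, gave 774 and 676 UMIs in HF-SC-like cells (223 and 194 CPM; log2 ratio -0.20, -0.35 to -0.05). Over clusters it had no common direction, with 8 above and 8 below 0. It ran from -0.89 in cluster 10, led by Tagln and Acta2, to 0.90 in sebaceous gland-like cells. Tuba1a, best known from the developing nervous system, gave 298 and 336 UMIs in HF-SC-like cells (85.9 and 96.5 CPM; log2 ratio 0.17, -0.06 to 0.40), an interval that spans 0. It was higher in IFE basal-like cluster 0 (858 and 898 UMIs; 94.4 and 152 CPM; 0.69) and in IFE suprabasal-like cells (109 and 189 CPM; 0.80). Its highest levels were outside the epithelium, at 676 and 801 CPM in dermal fibroblast-like cells and 355 and 804 CPM in melanocyte-like cells.

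The 3 Tuba1 genes have nearly the same coding sequence, which bears on how far their counts can be split. Of the 60-base windows in the last 400 bases of the longest transcript, 41.3% of Tuba1a, 51.9% of Tuba1b and 59.2% of Tuba1c occurred word for word in another of the 3. Tubb2a shared 28.2% with Tubb2b, and Stmn1, Tubb2b, Tubb4b, Tubb5 and Tubb6 shared none with any other coding transcript. Pseudogene copies were not in that set, and the RefSeq table lists some for Stmn1, Tubb2a and Tubb4b. Values of Tuba1a, Tuba1b, Tuba1c and Tubb2a are therefore less certain as single genes than those of the other members.

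Among the beta-tubulins, Tubb4b, which is broadly expressed, was the most abundant gene of all 9 in HF-SC-like cells. It gave 4504 UMIs in the control (1299 CPM) and 3338 in the induced library (959 CPM), a log2 ratio of -0.44 (-0.50 to -0.37). Apart, Tubb4b stood at -0.35 (-0.41 to -0.28) in cluster 3 and at -0.18 in cluster 19, with an interval that spans 0. As it was scarcer in cluster 19 (242 and 215 CPM), the pooled ratio also holds the differing mix of these clusters in each library. In hair germ-like cells it went from 785 to 418 CPM (-0.91, -1.12 to -0.70), although 5 cells held 39.5% of the control UMIs. With cells under 5% mitochondrial UMIs the ratio was -0.34. Markers of IFE suprabasal cells, all but Mt4 detected, also differed in this cluster, summing to 1194 and 385 CPM, and their part in the Tubb4b ratio was not tested. Over the 16 clusters it was above 0 in 7 and below in 9, with a median of -0.06. Cluster 3 had the highest Tubb4b level of the 22 clusters in the control, at 1360 CPM, with unnamed cluster 11 next at 1298 CPM and an overlapping interval, and stood in place 4 in the induced library, at 1069 CPM.

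Tubb6, a beta-tubulin that is scarce in most keratinocytes, had the lowest ratio of the 9 genes in HF-SC-like cells. It gave 137 UMIs in the control (39.5 CPM, 33.2 to 46.7) and 32 in the induced library (9.190 CPM, 6.286 to 12.97), a log2 ratio of -2.09 (-2.71 to -1.54). Cells with a Tubb6 UMI made up 19.5% of control and 6.27% of induced cells, or 13.9% and 2.08% after thinning to 5000 UMIs. The 5 cells with most Tubb6 UMIs held 20.4% of the control and 43.8% of the induced count. All of its UMIs in this class came from cluster 3, where the log2 ratio was -1.97; cluster 19 had 0 in both libraries. Of the 12 keratinocyte clusters with at least 20 UMIs, 10 were below 0, 6 of them by 0.5 or more and 8 with an interval that excluded 0, and the median was -0.52. In dermal papilla-like cells, which had the highest Tubb6 level, it was 423 CPM in the control and 401 CPM in the induced library, with overlapping intervals.

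Tubb5, a beta-tubulin known for high levels in proliferating cells, was the tubulin nearest to Stmn1 in direction. It gave 531 and 692 UMIs in HF-SC-like cells (153 and 199 CPM), a log2 ratio of 0.38 (0.21 to 0.54), and was seen in 66.6% and 76.4% of cells. Over the clusters it was above 0 in 12 of 16 with a median of 0.19, and its highest value, 0.99, was in cluster 16 (74 and 190 UMIs), where Stmn1 also stood among the highest. Hair germ-like cells had it at 295 and 327 CPM, with overlapping intervals.

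Tubb2a gave 747 and 625 UMIs in HF-SC-like cells (215 and 179 CPM; log2 ratio -0.26, -0.42 to -0.11), and was below 0 in 11 of 16 clusters. Its lowest value was -2.14 in sebaceous gland-like cells, where 192 UMIs in 20 control cells (495 CPM) compared with 86 UMIs in 36 induced cells (112 CPM). There 5 cells held 72.9% of the control and 64.0% of the induced count. Tubb2b, its neighbour and best known from neurons, was scarce in keratinocytes, with 58 and 53 UMIs in HF-SC-like cells (16.7 and 15.2 CPM) and a ratio whose interval spans 0. It was highest in melanocyte-like cells, at 249 and 276 CPM.

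As a family, tubulin UMIs were lower in induced HF-SC-like cells. The most abundant alpha genes, Tuba1a, Tuba1b, Tuba1c and Tuba4a, summed to 5864 UMIs (1691 CPM) in the control and 4206 (1208 CPM) in the induced library, and the 5 beta genes to 5977 (1724 CPM) and 4740 (1361 CPM). Tuba8, with 57 and 41 UMIs, is not in the alpha sum. The HF-SC-like sums and shares pool clusters 3 and 19, which enter in different proportions in each library. In the control, cluster 19 held far less Tuba1c (100 CPM, against 967 in cluster 3) and Tubb4b (242 against 1360 CPM). The part of that mix in these differences was not tested. Each UMI stands for 1 captured molecule, so shares of the family need no correction for length. They are limited by the sequence shared among the Tuba1 genes and between Tubb2a and Tubb2b, since reads that match several genes are by default not counted. Within the alpha family Tuba1c went from 54.4% (53.1% to 55.7%) to 46.8% (45.3% to 48.3%). Within the beta family Tubb5 went from 8.88% (8.17% to 9.63%) to 14.6% (13.6% to 15.6%), and in hair germ-like cells from 24.7% (21.0% to 28.6%) to 39.5% (36.2% to 42.9%). In those hair germ-like cells the level of Tubb5 itself had overlapping intervals, and it was Tubb4b that was lower. Over all keratinocytes without cycling UMIs the beta family was level between libraries, at 1261 and 1264 CPM, and the alpha family stood at 1360 and 1199 CPM.

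**Figure D4:**
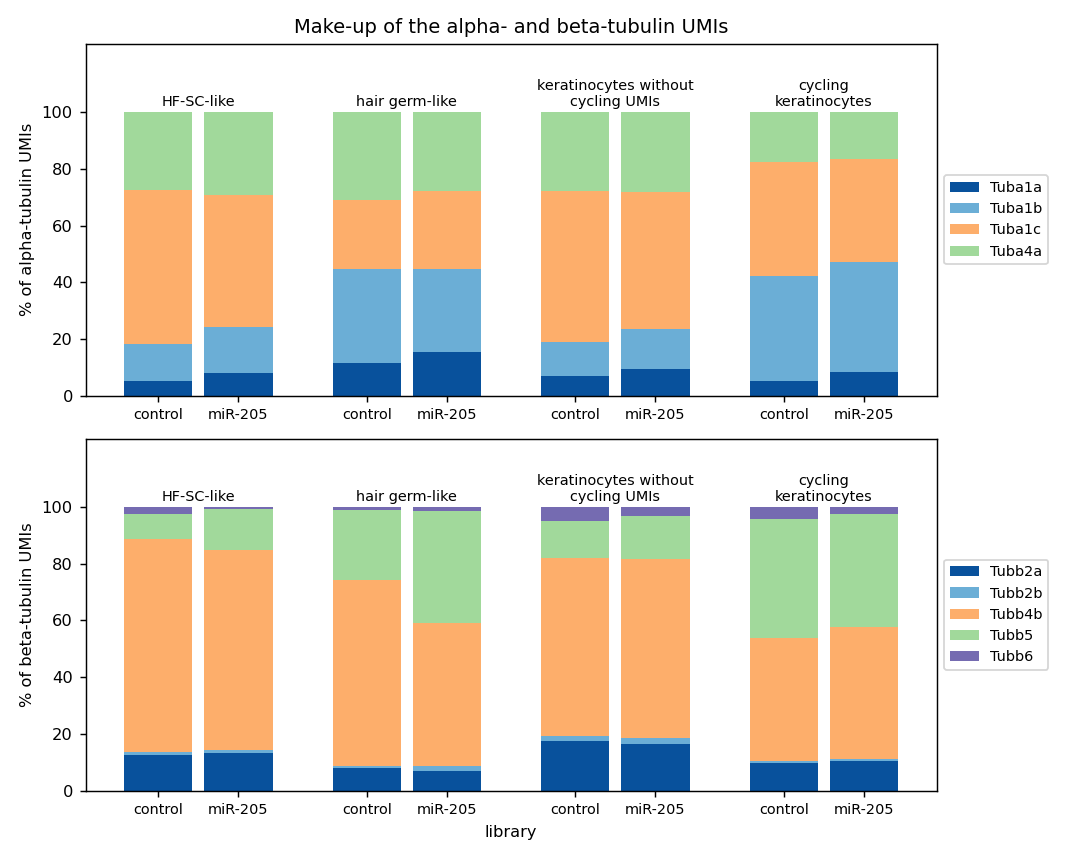
Share of each gene among alpha-tubulin UMIs (top) and beta-tubulin UMIs (bottom) in 4 populations of the control and induced library. Tuba1b and Tubb5 take far larger shares in cycling keratinocytes (37.0% and 42.1% in the control) than in HF-SC-like cells (13.2% and 8.88%).

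Cycling keratinocytes, 361 in the control and 235 in the induced library, had far more Stmn1 than other keratinocytes in both libraries. In the control Stmn1 stood at 583 CPM in cycling and 52.1 CPM in other keratinocytes, an 11.2-fold difference (log2 3.48, 3.40 to 3.56). In the induced library the values were 775 and 84.0 CPM, a 9.23-fold difference (log2 3.21, 3.14 to 3.28). Stmn1 was place 166 of 12298 and place 164 of 12277 genes. For comparison, Mki67, a standard marker of proliferation, was place 38 and 65.

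Of the tubulins, Tubb5 and Tuba1b were the ones much higher in cycling cells. Tubb5 was 5.58-fold higher in cycling keratinocytes of the control (164 and 914 CPM) and 4.66-fold in the induced library (193 and 900 CPM). Tuba1b was 3.87-fold (163 and 629 CPM) and 3.64-fold higher (167 and 610 CPM). Stmn1, Tubb5 and Tuba1b made 3 of the 9 genes past log2 0.5 in each library, where 20.4% of all genes were in the control and 17.7% in the induced library. Tubb6 (1.39- and 1.29-fold) and Tubb4b (1.19- and 1.31-fold) were modestly higher in both, and Tuba1a, Tuba1c, Tubb2a and Tubb2b lay between 0.81- and 1.17-fold.

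**Figure D5:**
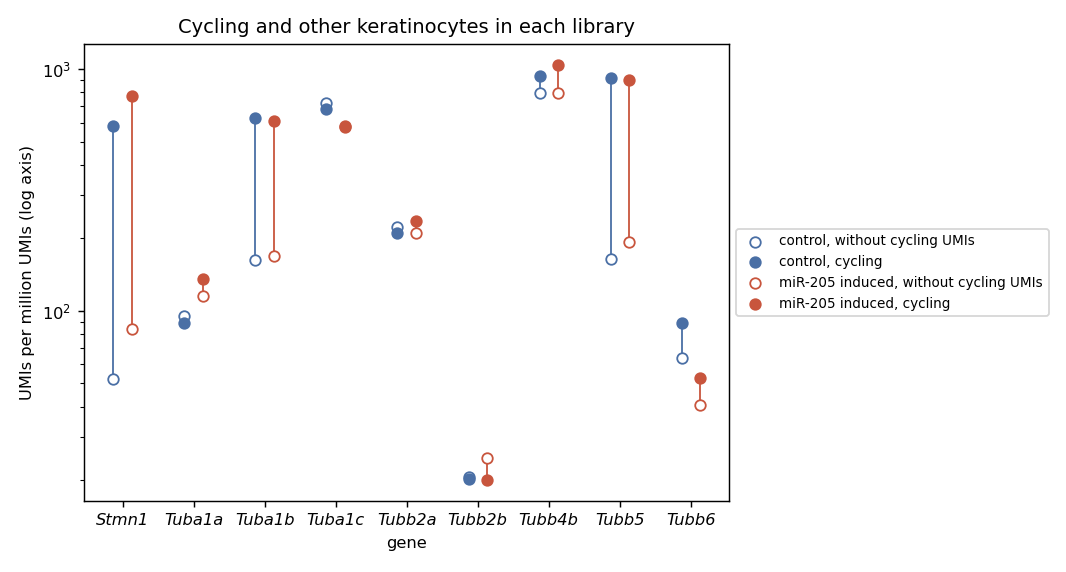
Level in CPM (log axis) of each gene in keratinocytes without cycling UMIs (open points) and in cycling keratinocytes (filled points) of the control (blue) and induced (red) library. Stmn1, Tubb5 and Tuba1b have long vertical gaps in both libraries (11.2-, 5.58- and 3.87-fold in the control), and the other 6 genes have short ones.

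Most of the Stmn1 count in cycling cells came from cluster 14, where 133 control and 74 induced cells stood at 1097 and 1617 CPM. The other cycling keratinocytes, spread over further clusters, stood at 172 and 251 CPM. Stmn1 was higher in cycling than in other cells of the same cluster in IFE basal-like cluster 0 (log2 2.25 in the control and 2.45 in the induced library) and in cluster 5, led by Plk2 (1.13 and 2.14). In cluster 2, led by Flg2 and Lor, genes of the late epidermis, the interval of that log2 ratio spanned 0 in both libraries (0.12 and -0.03).

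Among cycling keratinocytes themselves, Stmn1 gave 3621 UMIs in the control and 3310 in the induced library, or 583 and 775 CPM (log2 ratio 0.41, 0.34 to 0.48). That sum mixes cluster 14 with other clusters in different proportions, and apart they gave 0.56 in cluster 14 and 0.54 in the other clusters. Beside it, 7 of 25 genes of G2 and M phase were higher by 0.5 or more and none lower, and 5 of 25 S phase genes were lower and none higher. In the sum, Tuba1a was the member that was higher by 0.5 or more (88.9 and 135 CPM; 0.60; all genes 10.9%) and Tubb6 the member that was lower (88.9 and 52.5 CPM; -0.76; all genes 6.81%). Tuba1a stood at 0.85 in cluster 14 and 0.43 in the other clusters, and Tubb6 at -0.79 and -0.68. After thinning to 5000 UMIs per cell Tubb6 stood at -0.47. Tuba1b, Tubb2b and Tubb5 had ratios whose intervals span 0. The share of cycling cells also differed, at 10.3% of control and 7.85% of induced keratinocytes, or 7.12% and 4.69% after thinning, but stood at 26.7% and 26.9% when cycling meant a UMI of any of 10 genes. Those shares rest on the sort and on 1 mouse each.

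Other microtubule genes and cell cycle genes were read from 13 further lists. Of the remaining alpha- and beta-tubulins, Tuba4a gave 1603 and 1225 UMIs in HF-SC-like cells (462 and 352 CPM; log2 ratio -0.39, -0.50 to -0.29) and Tuba8 gave 57 and 41 (-0.48, interval across 0). Over all kept cells of both libraries together, Tubb3 had 99 UMIs and Tubb4a 97, too few to follow by population. Stmn2, a neuronal relative of Stmn1, had 44 UMIs in the control and 139 in the induced library. Its log2 ratio was 1.03 over keratinocytes without cycling UMIs, 3.03 in dermal papilla-like and 1.43 in dermal fibroblast-like cells. In hair germ-like cells it was -1.51, on 12 and 10 UMIs (28.4 and 9.86 CPM). All of these Stmn2 ratios are drawn from those 44 and 139 UMIs and have no interval here, so their size is uncertain.

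Counts in these lists are of genes with at least 20 UMIs in HF-SC-like cells, where the median of all genes was 0.09. Over all genes, 17.3% were higher and 8.77% lower by 0.5 or more, against which the counts below are to be read. Of 21 genes for tubulin folding and supply, 4 were higher (Tbcel 1.08, Ttc5 0.61, Tbcb 0.56 and Pfdn1 0.50) and 1 lower, with a list median of 0.03. Tbcb is a folding cofactor of alpha-tubulin, Pfdn1 a subunit of the prefoldin chaperone, and Ttc5 a factor in the feedback by which free tubulin lowers tubulin mRNA. Of 22 end-binding genes, 3 were higher and none lower. These were Camsap3, a minus-end binder (105 and 185 UMIs; 0.81), Clip2 (0.81, interval across 0) and Dctn1, a dynactin subunit (0.61). Of 11 lattice binders, Map1b alone passed, and it was lower, with 102 and 27 UMIs (29.4 and 7.75 CPM; -1.90, -2.59 to -1.30). Map1b encodes a stabiliser of microtubules best known from neurons. Of 22 motor genes, Dynll2 (0.67) was among 2 that were higher and Kif1b was the 1 that was lower (-0.81). Of 6 depolymerising and severing factors, Spast was higher at 0.52 with an interval that spans 0.

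Among 9 kinases and partners of stathmin, 2 were higher and 1 lower (all genes 17.3% and 8.77%). Cdkn1b was higher, with 119 and 196 UMIs (34.3 and 56.3 CPM; 0.71, 0.38 to 1.05). Its product p27, an inhibitor of the cell cycle, is also a binding partner of stathmin. Mapk3, which encodes the kinase ERK1, was higher (0.56), and Camk4, a calcium-dependent kinase, was lower with 122 and 71 UMIs (-0.78). Of 11 tubulin modifying enzymes, Sirt2, a deacetylase, and Svbp, the partner of the vasohibin detyrosinating enzymes, were higher (0.52 and 0.54), and Hdac6, another deacetylase, had -0.53 with an interval that spans 0. Of 8 gamma-tubulin and ring complex genes, 2 were higher, Tubgcp5 (0.68, interval across 0) among them.

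The cycling lists were thinly counted in HF-SC-like cells. Of 25 genes of G2 and M phase, 3 had at least 20 UMIs and none of these was past log2 0.5, and of 25 S phase genes 15 had as many, with 4 higher, 1 lower and a median of -0.09. Of 13 regulators of cycling genes with at least 20 UMIs, 6 were higher and 1 lower (all genes 17.3% and 8.77%), with a median of 0.37. They were led by Rbl2, a pocket protein that represses E2F targets in resting cells (23 and 50 UMIs; 1.10), and included Ccnd3 (0.62), Cdk4 (0.57) and Ccnd2 (0.55), a kinase and cyclins of G1 phase.

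The genes whose level over clusters was most like that of each member were ranked by Spearman correlation over 46 points (23 clusters in each of the libraries, which share library and depth), among 8866 genes. For Stmn1 these were Gfer (0.75), Tyms (0.72), Snrpa (0.71), Mrpl52 (0.69) and Mrps18b (0.68), and Tyms, Gfer and Mrpl52 stayed among the first 5 without cluster 14. No tubulin came near Stmn1, with Tubb6 and Tubb5 the nearest at 0.23 and 0.22. Tubb4b was most like Tuba4a (0.77), Tuba1c like Top1 and Ube2n (0.82 and 0.81), and Tubb6 like Eif4ebp1 and Rock2 (0.83 and 0.81). These correlations describe the clusters of 1 mouse per group and carry no test.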

How the data were processed

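Single-cell RNA-seq of the 10x type was measured in 1 control and 1 miR-205-induced library. The authors deposited raw UMI counts per gene and barcode, made with Cell Ranger 3.0.1 per the file headers on mm10 per the submitters' processing notes; reads that match several genes are, by that tool's default, not counted. From these counts, cells with 200 to 5000 genes and under 10% mitochondrial UMIs were kept and integrated in Seurat 5.3.0 (R 4.3.3; 2000 variable genes, 30 dimensions, resolution 0.8). The genes of all lists were withheld from the variable genes. These included the lists of S phase, of G2 and M phase and of regulators of cycling genes, so the clustering did not use those genes. Clusters were named when at least 3 markers with 20 UMIs were raised 2-fold and at least 1 was among the 10 leading genes at 100 CPM or more; this rule was set after the data were seen. A cluster is a keratinocyte cluster when its Krt5 and Krt14 CPM exceed its Vim CPM.

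UMIs were summed per population and library, and CPM, log2 ratios (pseudocount 0.5 UMI) and exact Poisson and Clopper-Pearson intervals at 95% were computed with scipy 1.17.1. Called means a log2 ratio of 0.5 or more in size with at least 20 UMIs. Thinning drew 5000 UMIs per cell without replacement. Scrublet's automatic threshold marked 4 and 5 barcodes and was not used; the 132 and 116 kept barcodes with the highest scores, as many as 0.8% per 1000 barcodes predicts, were left out as an alternative. The interval script was tested on simulated data.

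Genes named were the 9 members, other tubulins and stathmins, up to 4 genes of each list past log2 0.5 with at least 50 UMIs in HF-SC-like cells, Top2a, Cdk1 and Mki67, and the genes most like each member over clusters (log2 of CPM plus 10, genes with at least 500 UMIs). The members and lists were chosen with earlier results of these data known. Of 228 list genes, 226 matched a symbol in the tables. Gene and promoter positions are RefSeq's on GRCm38.p6 and transcripts are those of GENCODE vM1, used for sequence only.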

Additional observations from a re-analysis of the deposited data

Results flagged for a closer look

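Tuba1b, Tubb2a and Tubb4b were higher by log2 0.5 or more in some clusters and lower by as much in others, each with intervals that exclude 0; the differences between clusters were not tested. Tuba1b was highest in antigen-presenting-like cluster 18, at a log2 ratio of 1.09 (40 and 90 UMIs), and lowest in keratinocyte cluster 10, led by Tagln and Acta2, at -0.89 (555 and 274 UMIs). Tubb2a was highest in the same cluster 18, at 1.14 (14 and 33 UMIs), and lowest in sebaceous gland-like cells, at -2.14. Tubb4b was highest in T cell-like cells, at 0.73 (77 and 148 UMIs), and lowest in hair germ-like cells, at -0.91. For the lowest Tubb2a and Tubb4b values, 5 cells held a large part of the control count, as given above, which these intervals do not cover. With cells under 5% mitochondrial UMIs the Tubb4b value in hair germ-like cells was -0.34.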

How the results depend on the processing

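The Stmn1 log2 ratio of induced over control kept its direction in each alternative run for these populations and for the median over clusters, though under 6 alternatives 1 keratinocyte cluster lay below 0. It ranged from 1.73 to 1.98 in HF-SC-like cells, from 0.72 to 1.5 in hair germ-like cells, from 0.63 to 0.98 for the median over keratinocyte clusters and from 0.37 to 0.47 in cycling keratinocytes. In the sum over keratinocytes it left the counting interval when cycling was a UMI of any of 10 genes (0.78) and when cycling cells were not kept apart (0.36). Cycling over other keratinocytes gave log2 3.74 and 3.39 (control and induced) under 5% mitochondrial UMIs, 3.20 and 2.98 after thinning to 5000 UMIs, 3.28 and 3.06 as a mean over cells, and 3.37 in the control with median-of-ratios scaling. At a log2 fold of 1, the lower members were 1 in HF-SC-like and 0 in hair germ-like cells, and over keratinocytes and cycling keratinocytes both directions gave 0. Cluster 3 alone was chosen after seeing the data. Over all members, 96 of the alternative ratios and counts moved beyond the counting interval or 1.5 times, 553 did not, and none past log2 0.5 changed sign. With 1 library per group, the depth limits scarce genes (Tubb2b, Tubb6, Stmn1 outside the epithelium), and no replicate could be left out. No paired analysis was possible because each group has 1 sample and no test was run.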
